A study of Mus musculus with 15 samples.

Results

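Ccnb1, Ccnb2, Cdk1, Cdc25c and Wee1 encode the core of the switch that starts mitosis. They were taken by gene symbol from the deposited expression table, in which they are 5 of the 1711 genes that were higher with CCl4 than with corn oil, beside 1800 genes that were lower. Liver RNA was sequenced from male Swiss Webster mice that were 4 to 5 weeks old when the injections began, with 3 mice in each of 5 groups. In the CCl4 + EV group, mice received CCl4, a toxin that injures hepatocytes, on 3 days a week for 5 weeks, each dose being 4 μl diluted with 26 μl of corn oil for 25 g of body weight. Over the last 2 weeks they were also injected with extracellular vesicles, at 80 μg per 25 g for each of 3 doses a week. These vesicles (EVNorm in the study) came from AML12, a mouse hepatocyte cell line, so 1 line stands for hepatocytes as the source. The CCl4 group received the toxin alone, the oil + EV group received 30 μl corn oil with the vesicles, the oil group received corn oil alone, and the untreated group received no injections. Livers of the injected groups were taken 36 h after the last CCl4 or oil injection.

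Cyclin B1 and cyclin B2, the products of Ccnb1 and Ccnb2, bind and activate the kinase Cdk1, and the active complex drives the cell into mitosis. Wee1 is a kinase that holds Cdk1 inactive by phosphorylating it, and Cdc25c is a phosphatase that removes that phosphate. Most hepatocytes of an adult liver are not dividing, and after injury hepatocytes and other liver cells can return to the cell cycle.

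The promoters of the cyclin genes and Cdk1 are shown because genes of this switch are known to share promoter elements, the CCAAT box and the cell cycle genes homology region. RefSeq promoter windows, running from 250 bases before to 50 bases after the annotated start, are shown for 3 of the 5 genes, namely Ccnb1 (GRCm38.p6, chr13:100786437-100786736, minus strand), Ccnb2 (chr9:70421505-70421804, minus strand) and Cdk1 (chr10:69352863-69353162, minus strand). No window is shown for Cdc25c or Wee1. Capitals mark matches on either strand to CCAAT, which reads as ATTGG when it lies on the opposite strand. They also mark 3 forms searched for the cell cycle genes homology region, which were spelled TTTGAA or, in the second form, TTCGAA or, in the third form, TTTAAA. No 2 matches overlapped.
Ccnb1: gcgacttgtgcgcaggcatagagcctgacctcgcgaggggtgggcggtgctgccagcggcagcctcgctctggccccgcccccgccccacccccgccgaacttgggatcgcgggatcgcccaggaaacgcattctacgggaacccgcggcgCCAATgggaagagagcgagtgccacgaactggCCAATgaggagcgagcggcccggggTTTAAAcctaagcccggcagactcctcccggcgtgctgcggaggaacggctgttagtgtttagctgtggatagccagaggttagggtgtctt
Ccnb2: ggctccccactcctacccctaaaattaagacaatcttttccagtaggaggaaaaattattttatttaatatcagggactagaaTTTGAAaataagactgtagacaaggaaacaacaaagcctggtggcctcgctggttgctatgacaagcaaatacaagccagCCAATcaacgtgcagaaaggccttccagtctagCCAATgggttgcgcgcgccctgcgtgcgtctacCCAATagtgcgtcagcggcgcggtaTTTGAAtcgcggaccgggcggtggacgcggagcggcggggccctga
Cdk1: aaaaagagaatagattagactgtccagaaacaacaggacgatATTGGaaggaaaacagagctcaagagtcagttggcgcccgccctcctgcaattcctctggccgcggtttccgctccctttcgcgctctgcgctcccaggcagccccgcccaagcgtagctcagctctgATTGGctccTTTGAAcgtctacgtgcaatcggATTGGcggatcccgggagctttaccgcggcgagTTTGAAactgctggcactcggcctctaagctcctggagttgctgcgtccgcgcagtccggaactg
The Ccnb1 window held 2 CCAAT matches, which began 32 bases apart, and 1 TTTAAA. The Ccnb2 window held 3 CCAAT matches at a spacing of 33 bases and 2 TTTGAA, of which 1 lay just after the start. The Cdk1 window held 3 matches to CCAAT, all on the opposite strand, of which the nearest to the start began 32 bases from the next, and 2 TTTGAA. Among 27025 promoter windows of the same length, 12.2% had at least 2 CCAAT, 3.56% had at least 3, 18.1% had TTTGAA, 1.57% had TTCGAA and 13.2% had TTTAAA. A match is a description of the letters and not a binding site.

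In the annotation of GRCm38, Ccnb1 lies at chr13:100778650-100786570, Ccnb2 at chr9:70407692-70421547 and Cdk1 at chr10:69335146-69352938, all on the minus strand. Cdc25c lies at chr18:34732993-34751533 on the minus strand and Wee1 at chr7:110122046-110143286 on the plus strand. Cdc25c overlaps Gm3550 and Wee1 overlaps the antisense gene 1600010M07Rik, both on the opposite strand. The strand setting of the authors' counting is not given in the sources used here, so reads of these overlapping genes may not have been told apart. Transcripts of Ccnb1 match those of 5 pseudogenes over at least 150 bases at 94.4% to 99.2% identity, so reads shared with these copies make the Ccnb1 level uncertain.

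The libraries held 6106856 to 11055679 reads over the genes of the table, and each value is given here as a normalized count, which is the reads of a gene divided by a size factor of the library. The table is limited to genes that the authors called between CCl4 and oil, so CCl4 and oil values are described without a test against each other. Tests were limma's moderated tests on log2(normalized count + 1), fitted to the 15 libraries together. P-values were adjusted by the Benjamini-Hochberg method across all genes of the table, and a gene was called below an adjusted p of 0.05. Oil replicates 2 and 3 differed less than other replicates of 1 group (a chi-square of 2.17 per gene, against 31.4 to 283 for the other 14 pairs). They were kept as 2 samples, as labelled, since they differed by more than sampling noise, but that does not show that they came from separate mice. Calls that changed when they were averaged as 1 are named.

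The first comparison asked what the vesicles did to the switch in CCl4-injured liver. All 5 genes were lower in every CCl4 + EV mouse than in every CCl4 mouse, and 4 of them, the cyclins, their kinase and the kinase that restrains it, passed the test. The fall was largest for Ccnb1 and smallest for Wee1.

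Ccnb1 had normalized counts of 32.9, 45.5 and 37.6 in CCl4 + EV livers, against 525.2, 600.3 and 293.2 in CCl4 livers. Even the lowest CCl4 mouse, replicate 3, was far above the highest vesicle-treated mouse. The mean was 38.7 ± 6.37 in CCl4 + EV livers and 472.9 ± 160 in CCl4 livers (SD, n = 3 each), so that the vesicle-treated livers held 8.18% of the CCl4 mean. The log2 fold change was -3.53 (SE 0.55, limma adjusted p = 0.0013), which was the third most negative value of the whole table.

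Ccnb2, which encodes the other mitotic B-type cyclin, had 42.8, 42.3 and 36.0 normalized counts in CCl4 + EV livers, against 258.1, 386.9 and 258.2 in CCl4 livers. The vesicle-treated mice were tightly grouped and did not overlap with the CCl4 mice. The log2 fold change was -2.85 (SE 0.49, limma adjusted p = 0.0028).

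Cdk1, the kinase of the complex, had 56.8, 67.4 and 72.7 normalized counts in CCl4 + EV livers, against 450.0, 421.5 and 225.0 in CCl4 livers. CCl4 replicate 3 was again the lowest of its group. The log2 fold change was -2.40 (SE 0.35, limma adjusted p = 0.00094), and the CCl4 + EV mean was 18% of the CCl4 mean.

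Cdc25c, the activating phosphatase, was the least abundant of the 5 genes, with 9.9, 8.6 and 5.7 normalized counts in CCl4 + EV livers, against 50.6, 70.6 and 25.3 in CCl4 livers. These values rest on 7 to 12 reads in each CCl4 + EV library and 26 to 92 reads in each CCl4 library. Groups did not overlap, but the log2 fold change of -2.37 (SE 0.70) missed the threshold in the main test (limma adjusted p = 0.0603). Over all genes of the table, deviations of same-numbered mice of these 2 groups correlated weakly, at 0.17 to 0.23. A replicate block gave the same change an adjusted p of 0.0241, while edgeR and DESeq2 on the recovered reads gave -2.59 (adjusted p = 0.00783) and -2.60 (adjusted p = 0.0011). Cdc25c also passed with a pseudocount of 5 (adjusted p = 0.00306), with only the groups compared (adjusted p = 0.0111), and without oil + EV replicate 1 (adjusted p = 0.0412) or oil + EV replicate 3 (adjusted p = 0.0221). Under 20 of the 27 alternatives it still missed the threshold. Its adjusted p was 0.149 with a pseudocount of 0.5 and 0.225 without CCl4 replicate 2.

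Wee1, the inhibitory kinase, had 59.2, 69.8 and 47.4 normalized counts in CCl4 + EV livers, against 164.2, 138.9 and 111.1 in CCl4 livers. The groups did not overlap, and the CCl4 + EV mean was 42.6% of the CCl4 mean. The log2 fold change was -1.22 (SE 0.27, limma adjusted p = 0.012). The call was lost without CCl4 + EV replicate 3 (-1.07, adjusted p = 0.0758) or CCl4 replicate 1 (-1.08, adjusted p = 0.0698).

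Of all genes in the table, 5.16% were called lower in CCl4 + EV than in CCl4 livers, and 20.0% had all 3 values lower with no overlap. Each of the 5 genes was higher in CCl4 than in oil livers, and among the 1711 such genes 9.23% were called lower with vesicles. The CCl4 libraries had also been used to choose the table. Because the libraries were made from whole liver, fewer cells of a type and less RNA per cell cannot be told apart. In the marker lists, 8 of 13 stellate cell and myofibroblast genes were in the table, and their summed level was 11252 to 13200 in CCl4 + EV livers, against 18187 to 23116 in CCl4 livers. For macrophages and monocytes, 2 of 11 genes (Lyz2 and Ccr2) summed to 1412 to 2067 in CCl4 + EV livers and 3488 to 4079 in CCl4 livers. For hepatocytes, 2 of 11 genes (Apoa1 and Cyp2e1) summed to 148366 to 173218 in CCl4 + EV livers and 146757 to 168677 in CCl4 livers. For endothelial cells, 2 of 9 genes (Clec4g and Tek) summed to 1459 to 1496 in CCl4 + EV livers and 1704 to 1828 in CCl4 livers, while for erythroid cells 1 of 7 (Alas2) had overlapping values (324.4 to 510.9 in CCl4 + EV livers and 281 to 520.3 in CCl4 livers), and 0 of 6 neutrophil genes were in the table. The sums of 2 further marker lists are not reported here, so these lists are not the full set. The part of these cell types in the result was not tested.

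**Figure D1:**
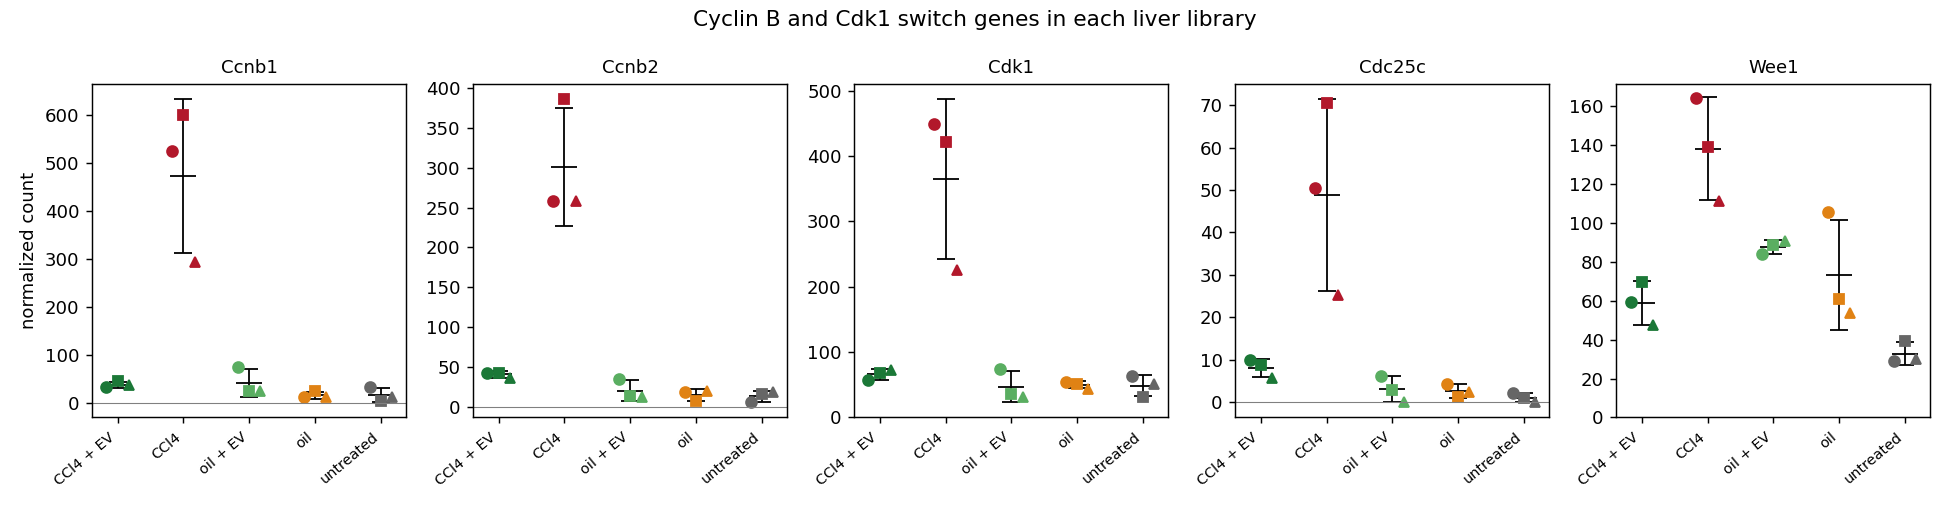
Normalized counts (vertical axis, linear, a separate scale for each gene) of the 5 genes in every library of the 5 groups; circles, squares and triangles are replicates 1, 2 and 3, and bars give the mean ± SD of 3 mice. For each gene the 3 CCl4 mice lay above all other mice, and for Wee1 the oil and oil + EV mice lay between the CCl4 mice and the untreated mice.

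The size of the difference between CCl4 and oil livers was unequal among the genes. The CCl4 mean was 27.9 times the oil mean for Ccnb1, 20.3 times for Ccnb2, 19 times for Cdc25c and 7.37 times for Cdk1, but only 1.88 times for Wee1. These ratios are a description, because CCl4 against oil was the contrast that chose the table.

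The next comparison set CCl4 + EV livers against oil + EV livers, to show how far the switch stood from uninjured liver given the same vesicles. No gene passed the test, against 49.6% of the table called in either direction. At an unadjusted p under 0.05 there were 3 genes, while DESeq2 called 1 (Ccnb2) and edgeR called 0. Such results were common in the table, where the 49.6% stands for 1740 genes and 2152 genes had an unadjusted p under 0.05. Over the table DESeq2 called 798 genes higher and 1145 lower, and edgeR called 742 higher and 1056 lower.

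Ccnb1 had 75.3, 25.4 and 25.6 normalized counts in oil + EV livers, a range that enclosed all 3 CCl4 + EV values, and its log2 fold change of CCl4 + EV over oil + EV was 0.06 (SE 0.55, limma adjusted p = 0.925). Ccnb2 had 35.2, 13.2 and 11.6 in oil + EV livers, all below the lowest CCl4 + EV value of 36.0, and its log2 fold change was 1.15 (SE 0.49, limma adjusted p = 0.0615). Ccnb2 and Wee1 were the members whose groups did not overlap here, which held for 64.5% of all genes.

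Wee1, the inhibitory kinase, had 83.8, 88.4 and 90.7 normalized counts in oil + EV livers, all above the highest CCl4 + EV value of 69.8, and its log2 fold change was -0.58 (SE 0.27, limma adjusted p = 0.0738). For Cdk1 the log2 fold change was 0.59 (SE 0.35, limma adjusted p = 0.154) and for Cdc25c it was 1.57 (SE 0.70, limma adjusted p = 0.0681). With the replicate block, Cdc25c had an adjusted p of 0.0339, although replicate numbers did not pair these 2 groups.

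These comparisons leaned on oil + EV replicate 1, in which Ccnb1, Ccnb2, Cdk1 and Cdc25c were each the highest of their group. Without it, Ccnb2 (log2 fold change 1.62, adjusted p = 0.0296), Cdk1 (0.97, adjusted p = 0.0449) and Cdc25c (2.19, adjusted p = 0.0377) were called higher in CCl4 + EV than in oil + EV livers. Ccnb2 was also called without oil replicate 2 (adjusted p = 0.0477) or untreated replicate 1 (adjusted p = 0.0371), and with oil replicates 2 and 3 averaged as 1 (adjusted p = 0.0485). Wee1 was called lower without oil replicate 1 (adjusted p = 0.047) or with only these groups fitted (adjusted p = 0.0496).

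In uninjured liver, none of the 5 genes was called between oil + EV and oil, where 0.228% of the table was called. Before adjustment 0 of them had a p under 0.05, and neither edgeR nor DESeq2 called any. Ccnb1 had the nearest value, with 75.3, 25.4 and 25.6 normalized counts in oil + EV livers, against 12.7, 25.0 and 13.1 in oil livers. Every oil + EV mouse was above every oil mouse, by a narrow margin, and the log2 fold change was 1.14 (SE 0.55, limma adjusted p = 0.237). For the other 4 genes the log2 fold changes were 0.37 (Ccnb2), -0.19 (Cdk1), -0.15 (Cdc25c) and 0.32 (Wee1), with SEs of 0.27 to 0.70.

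The effect of vesicles was then compared directly between injured and uninjured liver. The difference of the log2 fold changes, under CCl4 minus under oil, was below 0 for all 5 genes, and 4 of them passed the test, against 1.91% of the table called in this direction. That share is over all genes, those lower with CCl4 than with oil among them. The CCl4 and oil libraries had been used to choose the table, and both enter this difference. All 5 genes were in the table as higher with CCl4, so its direction was not independent of that choice. The difference was -4.67 for Ccnb1 (SE 0.78, limma adjusted p = 0.00748), -3.21 for Ccnb2 (SE 0.70, adjusted p = 0.0272), -2.21 for Cdk1 (SE 0.49, adjusted p = 0.0302) and -1.53 for Wee1 (SE 0.38, adjusted p = 0.0481). For Cdc25c it was -2.22 (SE 0.98, adjusted p = 0.36).

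For Ccnb1 this difference stayed past the threshold under every alternative run, with an adjusted p of at most 0.0355. For Ccnb2 it was lost without any 1 of 7 libraries (each CCl4 + EV mouse, CCl4 replicates 1 and 2, oil + EV replicate 1 and oil replicate 2; adjusted p 0.0548 to 0.0838), and for Cdk1 without any 1 of those or oil replicate 3 (adjusted p 0.0661 to 0.105). For Wee1 it was lost without any 1 library other than CCl4 replicate 3, oil replicate 1 and untreated replicate 2 (adjusted p 0.0513 to 0.145). With oil replicates 2 and 3 averaged as 1, Cdk1 (adjusted p = 0.0734) and Wee1 (adjusted p = 0.126) also missed it. With a pseudocount of 0.5 Wee1 missed it (adjusted p = 0.0539), and with a pseudocount of 5 Cdc25c passed it (-1.98, adjusted p = 0.048).

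**Figure D2:**
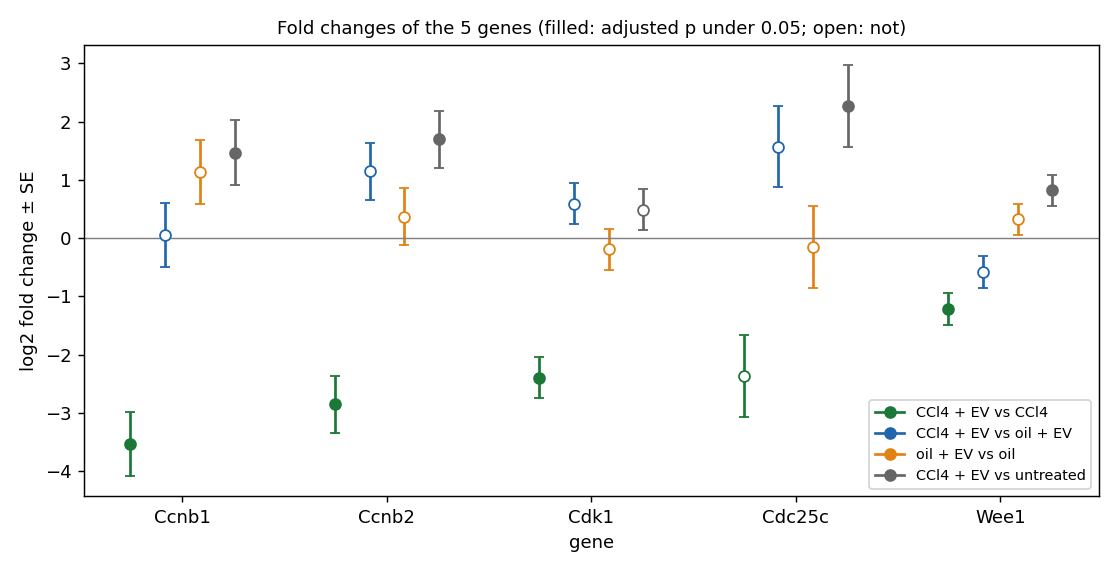
Log2 fold changes with their SE (vertical axis) of the 5 genes (horizontal axis) in 4 comparisons of groups of 3 mice; filled points have a limma adjusted p under 0.05. The values for CCl4 + EV over CCl4 ran from -3.53 for Ccnb1 to -1.22 for Wee1, while those for oil + EV over oil ran from -0.19 for Cdk1 to 1.14 for Ccnb1 and were all open.

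The levels left after vesicle treatment were next compared with those of untreated mice. Ccnb1, Ccnb2, Cdc25c and Wee1 were higher in CCl4 + EV than in untreated livers, and so were 35.0% of all genes in the table. Cdk1 did not pass.

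Ccnb2 had 5.4, 15.4 and 18.7 normalized counts in untreated livers, none of which reached the lowest CCl4 + EV value of 36.0 (log2 fold change 1.70, SE 0.49, limma adjusted p = 0.00572). Cdc25c had 2.1, 1.0 and 0.0 in untreated livers, which is 3 reads in all 3 libraries, and the log2 fold change was 2.27 (SE 0.70, limma adjusted p = 0.00783). Counted as reads, CCl4 + EV livers had 7.18 times the Cdc25c of untreated livers, with an exact 95% interval of 2.23 to 36.7 that covers counting error only. Ccnb1 had 34.4, 4.8 and 12.9 in untreated livers and overlapped with CCl4 + EV livers (1.47, SE 0.55, limma adjusted p = 0.024). Its values in untreated mice spread more widely, relative to their mean, than in any other group.

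Wee1 had 29.0, 39.4 and 30.2 normalized counts in untreated livers, all below the CCl4 + EV values (log2 fold change 0.82, SE 0.27, limma adjusted p = 0.0114). Cdk1 had 63.4, 30.8 and 50.3 in untreated livers, so that its CCl4 + EV values overlapped with them (0.49, SE 0.35, limma adjusted p = 0.204). The Ccnb1 call was lost without CCl4 + EV replicate 2 (1.35, adjusted p = 0.0682) or untreated replicate 2 (0.83, adjusted p = 0.154) and in edgeR (1.15, adjusted p = 0.0682), and the Wee1 call without CCl4 + EV replicate 2 (0.69, adjusted p = 0.0522). TMM scaling over the table raised the median log2 fold change of all genes here by 0.27, and with it Cdk1 was also called (0.76, adjusted p = 0.0492).

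Against oil livers, which helped to choose the table, Ccnb2 alone was called higher in CCl4 + EV livers (log2 fold change 1.51, SE 0.49, limma adjusted p = 0.011), where 38.0% of the table was called higher. Ccnb2 had 17.9, 6.5 and 20.2 normalized counts in oil livers, and its call was lost without oil replicate 2 (1.04, adjusted p = 0.0653). The log2 fold changes of Ccnb1 (1.20, SE 0.55, limma adjusted p = 0.0549) and Cdc25c (1.41, SE 0.70, limma adjusted p = 0.069) missed the threshold. Ccnb1 passed it without oil + EV replicate 1, oil replicate 2, or untreated replicate 1 or 2 (adjusted p 0.0252 to 0.0396), and Cdc25c without oil + EV replicate 3 (adjusted p = 0.0326). Both were also called with only these groups fitted, with median-ratio scaling and with TMM (adjusted p 0.00861 to 0.0426), and Ccnb1 in DESeq2 (adjusted p = 0.0281) and Cdc25c with the replicate block (adjusted p = 0.0328).

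In oil + EV livers, Wee1 was higher than in untreated livers, with no overlap (log2 fold change 1.40, SE 0.27, limma adjusted p = 0.00467), and it was the 1 gene of the 5 that was called, against 10.4% of the table called higher. When only these groups were fitted, its adjusted p was 0.0693. Ccnb1 had a log2 fold change of 1.41 in the same comparison (SE 0.55, limma adjusted p = 0.0636), and was called without untreated replicate 1 (2.07, adjusted p = 0.0278), with median-ratio scaling (1.52, adjusted p = 0.0482), with TMM (1.54, adjusted p = 0.0453) and in DESeq2 (1.27, adjusted p = 0.0468).

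Corn oil alone gave the same order for Wee1, with 105.6, 60.9 and 53.5 normalized counts in oil livers, all above the 29.0 to 39.4 of untreated livers. Its log2 fold change was 1.08 (SE 0.27, limma adjusted p = 0.069). No gene of the 5 was called between oil and untreated livers in limma, against 0.911% of the table. At an unadjusted p under 0.05 there was 1 gene, Wee1, which DESeq2 called (1.15, adjusted p = 0.0162) and edgeR did not, and which limma called without untreated replicate 2 (1.22, adjusted p = 0.0216). The oil + EV and the oil comparison share the untreated mice.

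The balance within the switch was examined as ratios of levels per kb of transcript, given as a description with no test. Ccnb1 over Cdk1 was 1.04 ± 0.142 in CCl4 + EV livers and 2.28 ± 0.225 in CCl4 livers (SD, n = 3 each), while the lower values were those of oil livers (0.6 ± 0.232) and untreated livers (0.56 ± 0.353). In oil + EV livers it was 1.51 ± 0.271. The 3 CCl4 mice had the 3 highest ratios of the 15.

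Cdk1 over Wee1, the kinase over its inhibitor, was 0.902 ± 0.258 in CCl4 + EV livers and 2.03 ± 0.406 in CCl4 livers. It was 0.422 ± 0.234 in oil + EV livers, 0.565 ± 0.145 in oil livers and 1.21 ± 0.555 in untreated livers, where 1 mouse (1.71) was above the lowest CCl4 mouse (1.58). Ccnb1 over Ccnb2 was 0.592 ± 0.104 in CCl4 + EV livers and 0.967 ± 0.276 in CCl4 livers, and in untreated livers it ran from 0.192 to 3.92 with 1 mouse low in Ccnb2 and another low in Ccnb1.

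**Figure D3:**
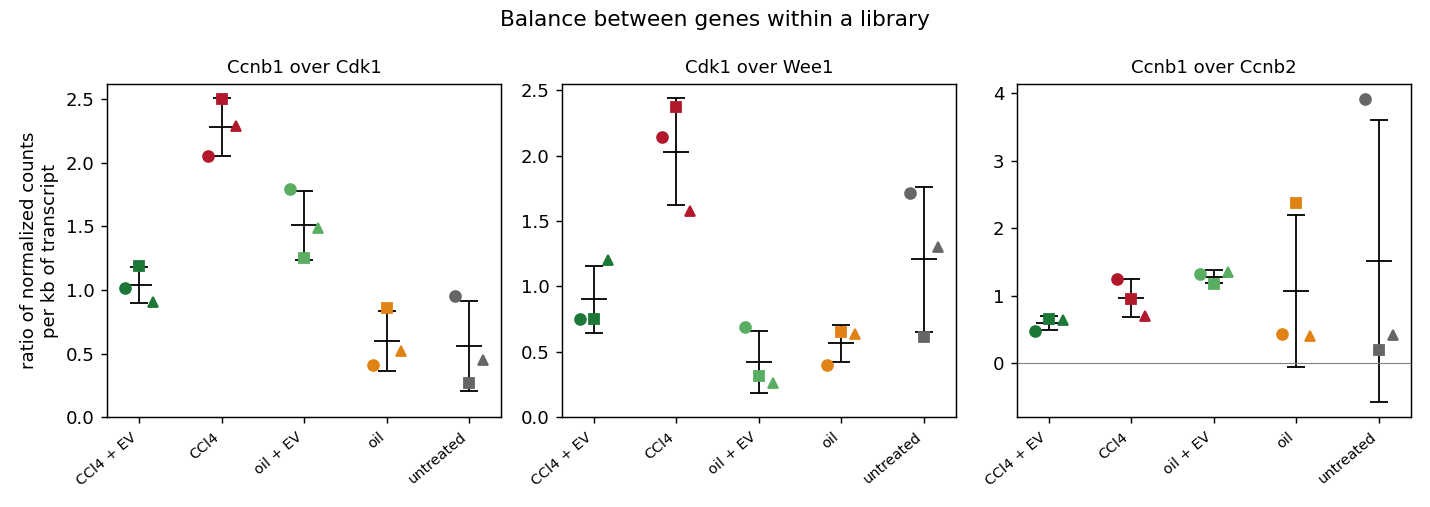
Ratios of normalized counts per kb of transcript (vertical axis, linear) within each library, for Ccnb1 over Cdk1, Cdk1 over Wee1 and Ccnb1 over Ccnb2; circles, squares and triangles are replicates 1, 2 and 3, and bars give the mean ± SD of 3 mice. Ccnb1 over Cdk1 was 2.05 to 2.5 in the CCl4 mice and at most 1.79 elsewhere.

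The order of the levels differed between genes. For Ccnb1, CCl4 (472.9 ± 160) was followed by oil + EV (42.1 ± 28.8), CCl4 + EV (38.7 ± 6.37), untreated (17.4 ± 15.3) and oil (16.9 ± 6.99), and below CCl4 each group overlapped with the next. For Wee1, CCl4 (138.1 ± 26.6) was followed by oil + EV (87.6 ± 3.51), oil (73.3 ± 28.2), CCl4 + EV (58.8 ± 11.2) and untreated (32.9 ± 5.69). The breaks without overlap lay at each end, between CCl4 and oil + EV and between CCl4 + EV and untreated.

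Within groups, the same mice were high or low in Ccnb1 and Cdk1, which was less so for Ccnb2 and Wee1. Over the 15 libraries, deviations from the group means on the log2 scale correlated at 0.86 between Ccnb1 and Cdk1, at 0.61 between Cdk1 and Cdc25c, at -0.18 between Ccnb1 and Ccnb2 and at 0.04 between Cdk1 and Wee1. Levels over the same libraries correlated at 0.63 to 0.94 for the same pairs. These values are descriptions, and genes of 1 library share its depth and scaling.

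Single mice stood out. CCl4 replicate 3 was the lowest, or within 0.1 normalized counts of the lowest, of its group for all 5 genes. Oil + EV replicate 1 was the highest of its group for the cyclins, Cdk1 and Cdc25c but the lowest for Wee1. Of all genes in the table, 40.5% were lowest in CCl4 replicate 3 within its group and 41.5% were highest in oil + EV replicate 1 within its group.

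**Figure D4:**
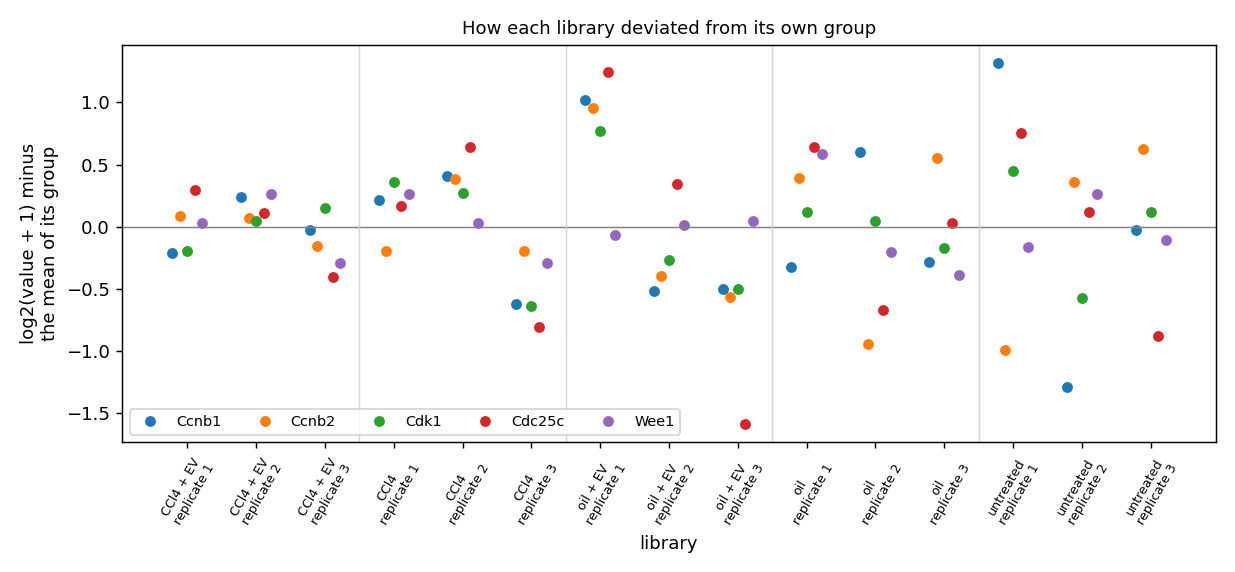
Deviation of each gene from the mean of its own group, in log2(normalized count + 1) (vertical axis), for the 15 libraries (horizontal axis); colours are the 5 genes. In oil + EV replicate 1, Ccnb1, Ccnb2, Cdk1 and Cdc25c were 0.767 to 1.243 above their group and Wee1 was 0.063 below it.

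The genes whose log2 levels followed each member most closely over the 15 libraries were found by Pearson's r. For Ccnb1 they were Ckap2l (0.983), Cdca2 (0.973) and Ckap2 (0.973). For Cdk1 they were Prc1 (0.978), a protein of the central spindle, Anln (0.973), the cytokinesis protein anillin, and Ccna2 (0.971), cyclin A2. The 15 points fall into 5 groups, and the table was chosen for differences between the CCl4 and oil mice among them.

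For Ccnb2 the closest were Ncapd2 (0.957), a condensin subunit, Parpbp (0.948) and Kif20a (0.944), a mitotic kinesin. For Cdc25c they were Hmmr (0.951), Knstrn (0.947), a spindle protein, and Ckap2 (0.946). For Wee1 the values were lower, with Clint1 (0.905), which acts in clathrin-coated vesicle transport, Lockd (0.888) and Ddias (0.860). With group means removed, the values were 0.79 to 0.86 for the genes closest to Ccnb1, 0.40 to 0.58 for Ccnb2, 0.81 to 0.90 for Cdk1, 0.72 to 0.81 for Cdc25c and 0.51 to 0.68 for Wee1.

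The surrounding network of mitotic entry was read from lists of 97 genes, of which 28 were in the table. The others are absent because the table holds only genes called between CCl4 and oil. In CCl4 + EV against CCl4 livers, 15 of the 28 were called lower, against 5.16% of the table and 9.23% of the genes that were higher with CCl4 than with oil, and none was called higher (13 did not pass). The count was 7 without CCl4 + EV replicate 3, CCl4 replicate 1 or CCl4 replicate 2, and 9 without CCl4 + EV replicate 2. The 28 genes had a median log2 fold change of -1.35, beside -0.06 over all genes of the table and -0.09 over the 1711 genes that were higher with CCl4 than with oil. Of the 28 genes, 27 were higher with CCl4 than with oil.

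In the list for cyclin B destruction and the spindle checkpoint that holds it back, 7 of 23 genes were in the table. All 7 were called lower. Their median log2 fold change was -2.67, and Pttg1 (securin) was among them. The largest changes were in Ttk, a checkpoint kinase (11.3 ± 6.68 normalized counts in CCl4 + EV livers and 117.6 ± 23.4 in CCl4 livers, log2 fold change -3.44, limma adjusted p = 0.0125), and Ube2c, the ubiquitin-conjugating enzyme of the anaphase-promoting complex (-3.17, limma adjusted p = 0.00459). Cdc20, the activator of that complex, changed by -2.90 (adjusted p = 0.00955) and the checkpoint kinase Bub1 by -2.67 (adjusted p = 0.0336). Ube2c and Mad2l1 kept their calls without any 1 library. The call of Cdc20 was lost without CCl4 replicate 1 (adjusted p = 0.0506), that of Ttk without CCl4 replicate 1 or 2 or CCl4 + EV replicate 3 (adjusted p 0.0522 to 0.0793), and that of Bub1 without CCl4 replicate 1 or 2 or any 1 CCl4 + EV mouse (adjusted p 0.0703 to 0.13), with a pseudocount of 0.5 (adjusted p = 0.0511) and with no trend (adjusted p = 0.0566). Pttg1, which encodes securin (-1.50, adjusted p = 0.012), lost its call without CCl4 + EV replicate 3 or CCl4 replicate 1 or 2 (adjusted p 0.0617 to 0.0785). Bub1b, a checkpoint protein (-2.19, adjusted p = 0.0428), lost its call without any 1 CCl4 + EV, CCl4 or oil mouse (adjusted p 0.0518 to 0.156), with a pseudocount of 0.5 (adjusted p = 0.0519), with no trend (adjusted p = 0.0717) and with oil replicates 2 and 3 averaged as 1 (adjusted p = 0.0572).

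In the list of upstream kinases with the cofactor Bora and the Greatwall branch, 5 of 11 genes were in the table. The 5 had a median log2 fold change of -2.37, and 4 of them were called lower. They were Aurka (log2 fold change -2.37, limma adjusted p = 0.00507), which activates Plk1, Mastl (-2.21, adjusted p = 0.00476), the Greatwall kinase that protects Cdk1 substrates from dephosphorylation, Aurkb (-2.39, adjusted p = 0.0244) and Plk1 itself (-2.46, adjusted p = 0.0497). The Plk1 call was lost with the replicate block (adjusted p = 0.068), a pseudocount of 0.5, a mean of at least 10, no trend or TMM (adjusted p 0.0517 to 0.107), and without any 1 of 10 libraries, each CCl4 and CCl4 + EV mouse among them (adjusted p up to 0.176), and the Aurkb call without any 1 CCl4 or CCl4 + EV mouse (adjusted p 0.0604 to 0.0921). Bora, which binds Aurora A, had a log2 fold change of -0.21 and was not called.

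Of 9 other cyclins listed, 3 were in the table. All 3 were called lower, namely Ccna2 (-2.61, limma adjusted p = 0.00094), Ccnd1, the cyclin of early G1 (-1.20, adjusted p = 0.031), and Ccnf (-1.06, adjusted p = 0.016). Ccnd1 missed the threshold without CCl4 + EV replicate 2 or 3 or CCl4 replicate 2 (adjusted p 0.0794 to 0.165), with no trend (adjusted p = 0.065) and with only the groups compared (adjusted p = 0.122), and Ccnf without those mice or CCl4 replicate 1 (adjusted p 0.0579 to 0.0901). Of 21 transcription factors listed for these genes, 3 were in the table. Foxm1, an activator of mitotic genes, was the 1 called (19.7 ± 5.01 normalized counts in CCl4 + EV livers and 96.7 ± 18.4 in CCl4 livers, -2.25, adjusted p = 0.00511). Rbl1 had -0.81 (adjusted p = 0.0629), and was called in edgeR (adjusted p = 0.0377), in DESeq2 (adjusted p = 0.01) and without CCl4 replicate 3 or oil + EV replicate 3 (adjusted p 0.0398 to 0.0418). E2f2 had -0.58 (adjusted p = 0.454).

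Of the listed brakes 4 of 8 were in the table, as were 3 of 4 relatives of Wee1 and Cdc25c, and none was called. Of 4 inhibitors of cyclin-dependent kinases 0 passed, with log2 fold changes of -2.83 for Cdkn3 (limma adjusted p = 0.0736), -0.98 for Cdkn2c (adjusted p = 0.113), -0.70 for Cdkn1a, which encodes p21 (adjusted p = 0.5), and -0.40 for Cdkn1c (adjusted p = 0.757). At an unadjusted p under 0.05 there were 2 of them, edgeR called 1 and DESeq2 called 2, and with only the groups compared Cdkn3 (adjusted p = 0.0151) and Cdkn2c (adjusted p = 0.0481) passed. Cdkn3 also passed with a pseudocount of 5 (adjusted p = 0.00448) and without untreated replicate 2 or 3 (adjusted p 0.0287 to 0.0338). Of 3 relatives 0 passed: Pkmyt1, the second inhibitory kinase of Cdk1, had -1.06 (adjusted p = 0.435), Cdc25b -0.73 (adjusted p = 0.464) and Cdc25a -0.11 (adjusted p = 0.842), with 0 at an unadjusted p under 0.05 and 0 in edgeR and DESeq2. Cdk6 had 0.10 (adjusted p = 0.91), and of the DNA damage checkpoint genes Gadd45g had 1.42 (adjusted p = 0.316) and Gadd45b -0.22 (adjusted p = 0.934). Without CCl4 replicate 3, Gadd45g was called higher (2.41, adjusted p = 0.0128).

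**Figure D5:**
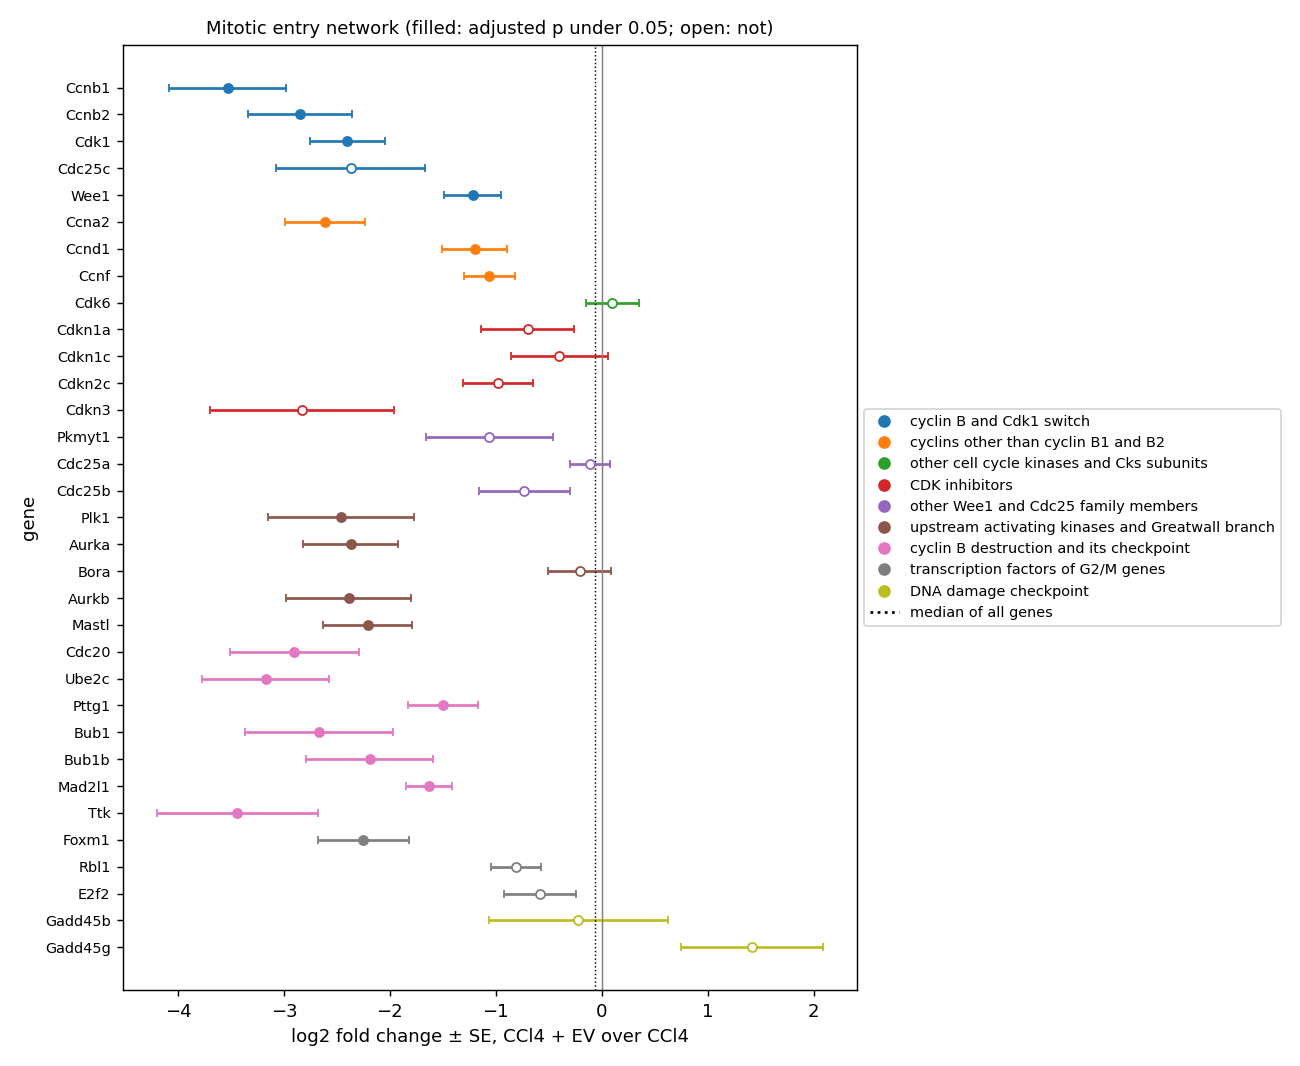
Log2 fold change with its SE of CCl4 + EV over CCl4 (horizontal axis) for the 5 genes and the 28 network genes of the table (vertical axis), coloured by list; filled points have a limma adjusted p under 0.05 and the dotted line is the median of all genes of the table, -0.06. The genes of cyclin B destruction and its checkpoint ran from -3.44 to -1.50 and were all called, while Cdk6 and Gadd45g lay above 0 and were not called.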

How the data were processed

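Stranded libraries were made from whole liver RNA after removal of ribosomal RNA, and their adapters carried molecular identifiers; whether these were used to remove duplicates is not given in the sources used here. Per the study's methods and the submitters' processing notes, the authors aligned reads with STAR to GRCm38.p3, counted them per gene with featureCounts and tested them with DESeq2. The deposited signal of each gene is the read count divided by a size factor of the library, written by the authors to 1 decimal. The authors' columns for CCl4 against oil (mean, fold change, statistic and p-values) were not used, and the table holds only the 3511 genes called in that comparison.

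Dividing by the value of 1 read returned whole reads for 100% of values in each library, within 0.05. Genes were tested two-sided with limma 3.58.1 (R 4.3.3) on log2(value + 1), with a mean-variance trend, no filter and all 15 libraries. Changes of genes with low values come out too small on this scale. EdgeR 4.0.16 (quasi-likelihood) and DESeq2 1.42.0 were run on the recovered reads with the authors' size factors. Other alternatives were pseudocounts of 0.5 and 5, a mean of at least 10, no trend, a robust prior, a fit of the compared groups alone, a replicate block, TMM or median-ratio scaling over the table, and each library left out. Averaging oil replicates 2 and 3 was added after seeing the data. The scripts were tested on simulated data. The labels give replicate numbers and do not say what a number marks. Deviations from group means correlated at 0.23, 0.18 and 0.17 between same-numbered CCl4 + EV and CCl4 mice. Between same-numbered oil + EV and oil mice they correlated at 0.06, -0.06 and 0.04. The main test used no pairing in any comparison, and the replicate block fitted the replicate number over all 15 libraries. The mice of a group are taken as separate animals from the study's account, which could not be checked for oil replicates 2 and 3, and their small number, 3 a group, limits precision.

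The 5 genes, the gene lists and the tests were chosen with earlier results of these data known. The summed levels of 2 of the marker lists are not reported here. From each network list up to 4 genes with the largest change were named, and for each of the 5 genes the 3 with the highest Pearson's r; Bora, Mad2l1, Bub1b and Pttg1 were named after their values were seen. Positions and principal transcript lengths came from the GENCODE annotation of GRCm38 and promoters from RefSeq. Near-identical transcripts were searched with blastn at 90% identity over 150 bases.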

Additional observations from a re-analysis of the deposited data

Results flagged for a closer look

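The change with vesicles differed between CCl4-injured and oil-treated liver for 4 of the 5 genes, by a limma test of the difference itself (Benjamini-Hochberg adjusted over all genes of the table, with 3 mice in each of the 4 groups). The difference of the log2 fold changes, under CCl4 minus under oil, was -4.67 for Ccnb1 (adjusted p = 0.00748), -3.21 for Ccnb2 (adjusted p = 0.0272), -2.21 for Cdk1 (adjusted p = 0.0302) and -1.53 for Wee1 (adjusted p = 0.0481). Of all genes in the table, 1.91% were called in this direction. The Ccnb1 call held under every alternative run. Those of Ccnb2, Cdk1 and Wee1 were lost without any 1 of 7, 8 and 12 libraries, in that order. With oil replicates 2 and 3 averaged as 1, Cdk1 and Wee1 also missed the threshold. The log2 fold change of CCl4 + EV over CCl4 was negative for all 4 genes, whereas that of oil + EV over oil was 1.14 for Ccnb1, 0.37 for Ccnb2, -0.19 for Cdk1 and 0.32 for Wee1. The CCl4 and oil libraries had been used to choose the table, and both enter this difference.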

How the results depend on the processing

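The falls of Ccnb1, Ccnb2 and Cdk1 in CCl4 + EV against CCl4 livers kept their direction and their side of the threshold under all 27 alternatives, and Wee1 under 25. Cdc25c missed the threshold in the main test and under 20 of the 27 alternatives. It passed with a pseudocount of 5 (-1.96), with only the groups compared (-2.37), with the replicate block (-2.37), in edgeR (-2.59), in DESeq2 (-2.60) and without oil + EV replicate 1 or 3. Without 1 library, the log2 fold changes ran from -3.84 to -3.32 for Ccnb1, -2.94 to -2.65 for Ccnb2, -2.72 to -2.22 for Cdk1, -2.77 to -2.05 for Cdc25c and -1.36 to -1.07 for Wee1. The number of the 5 genes called then ran from 3 to 5 in this comparison, 0 to 3 for CCl4 + EV against oil + EV, 1 to 4 for the difference between the vesicle effects, 2 to 4 for CCl4 + EV against untreated, 1 to 2 for oil + EV against untreated, 0 to 1 for oil against untreated and 1 to 2 for CCl4 + EV against oil; for the network genes it ran from 7 to 16.

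Against oil + EV, 1 gene was called with a pseudocount of 5, the block, median-ratio or TMM scaling, averaged oil mice or DESeq2, and 2 with only the groups compared. With averaged oil mice 2 genes kept the difference between the vesicle effects. For oil + EV against untreated, 0 genes were called with only the groups compared and 2 with median-ratio scaling, TMM or DESeq2, and for oil against untreated DESeq2 called 1. For CCl4 + EV against oil, 3 were called with only the groups compared, median-ratio scaling or TMM, and 2 with the block or DESeq2.

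The sign turned only in values far from the threshold. These were Ccnb1 for CCl4 + EV against oil + EV in edgeR (-0.10) and DESeq2 (-0.11), Cdc25c for oil + EV against oil with a pseudocount of 5 (0.02), in edgeR (0.17) and in DESeq2 (0.19), Cdk1 for oil + EV against untreated with median-ratio scaling (0.02) and TMM (0.04), Ccnb1 for oil against untreated in edgeR (-0.03) and DESeq2 (-0.04), and Gadd45b for CCl4 + EV against CCl4 in both (0.13). Without 1 library they were Ccnb1 for CCl4 + EV against oil + EV (-0.20 to 0.57), Ccnb2 (-0.11 to 0.65), Cdk1 (-0.58 to 0.06) and Cdc25c (-0.78 to 0.64) for oil + EV against oil, Cdk1 for oil + EV against untreated (-0.48 to 0.15), Ccnb1 (-0.37 to 0.93), Ccnb2 (-0.32 to 0.65) and Cdk1 (-0.19 to 0.32) for oil against untreated, Wee1 for CCl4 + EV against oil (-0.46 to 0.02), and Cdc25a (-0.19 to 0.01) and Gadd45b (-1.25 to 0.48) for CCl4 + EV against CCl4. The cause was not tested for any of these changes.

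Over the whole table, the calls were 199 in the main test for CCl4 + EV against CCl4 (94 to 306 under the alternatives), 1740 against oil + EV (918 to 1999), 8 for oil + EV against oil (0 to 103), 69 for the difference between the vesicle effects (20 to 134), 1087 for oil + EV against untreated (22 to 1369) and 32 for oil against untreated (17 to 331). They were 2947 for CCl4 + EV against oil (2629 to 3085) and 2778 for CCl4 + EV against untreated (2525 to 2797). TMM and median-ratio scaling raised the median log2 fold change of all genes by 0.05 and 0.04 in CCl4 + EV against CCl4, by 0.13 and 0.15 against oil + EV, by 0.23 and 0.25 against oil, by 0.27 each against untreated, and by 0.14 and 0.12 for oil + EV against untreated, and the values of single genes there should be read against these shifts. The share of calls that were higher was 41.3% in the main test, 57.3% with TMM and 61.1% with median-ratio scaling against oil + EV, 45.3%, 55.4% and 56.9% against oil, 33.7%, 52.3% and 49.3% for oil + EV against untreated, and 62.5%, 85.7% and 85% for oil + EV against oil. The replicate block changed no call of the 5 genes for CCl4 + EV against CCl4 beyond that of Cdc25c. Depth limits Cdc25c most, with 3 to 30 reads over the 3 libraries of each group other than CCl4.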

Other observations

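In oil-treated liver, 18 of the 28 network genes had a positive log2 fold change of oil + EV over oil, with a median of 0.29, beside -0.08 over all genes of the table. None of them passed limma's test (3 had an unadjusted p under 0.05, edgeR called 0 and DESeq2 called 1). Over the whole table, 761 genes had an unadjusted p under 0.05, edgeR called 1 and DESeq2 called 75 higher and 28 lower. The 3 network genes were a smaller share of the network than the 761 genes were of the table. The highest values were those of Plk1 (1.85, adjusted p = 0.181), Aurkb (1.31, adjusted p = 0.218), Cdkn3 (1.06, adjusted p = 0.42) and Ccnf (0.99, adjusted p = 0.076), and 18 of the 28 genes were highest in oil + EV replicate 1 within their group, against 41.5% of all genes. The part of that library in these values was not tested.

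Among promoter windows of 21 network genes of the table that had an entry, 9 held at least 2 CCAAT and 8 held TTTGAA, against 12.2% and 18.1% of all windows. These counts are descriptions of letters within a window.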
